A study of Mus musculus with 2 samples.

Results

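The genes described here are 8 CC chemokines and a chemokine receptor: Ccl2, Ccl7, Ccl8, Ccl12, Ccl3, Ccl4, Ccl6, Ccl9 and Ccr2. They were taken by symbol from the 31054 features of both count matrices, without use of their values, and all 9 were found. The study placed pancreatic ductal adenocarcinoma (PDAC) allografts in mice and asked what p16-expressing stromal cells do in the tumour. Both groups carried p16-CreERT2/R26-LSL-tdTomato: a drug-inducible Cre made from the p16 locus (Cdkn2a, a cell cycle inhibitor) switches on the red reporter tdTomato, so a cell is marked if it, or the cell it descends from, made the Cre when the drug was given. Tumour stromal cells from PBS-perfused animals were sorted by reporter fluorescence into Tom positive and Tom negative cells, and each gave 1 single-cell library (10x Genomics 3′ v3.1). The age of the mice, the timing of induction, the number of animals behind each library and whether they were pooled are not given in the sources used here.

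CC chemokines are small secreted proteins that draw leukocytes towards their source. CCL2, CCL7, CCL8 and mouse CCL12 form the monocyte chemoattractant group, and CCL2, CCL7 and CCL12 act mainly through CCR2, the receptor that brings inflammatory monocytes out of the marrow and into tissue. Mouse CCL8 acts through CCR8 as well, CCL3 and CCL4 are the macrophage inflammatory proteins, of which CCL3 binds CCR1, and CCL6 and CCL9 are rodent chemokines that bind CCR1. In pancreatic tumours this axis is known for the supply of monocytes that become tumour macrophages.

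The ligands lie in 2 groups on mouse chromosome 11. In mm10, with GENCODE M21 gene models, the monocyte chemoattractant group runs in the order Ccl2 (chr11:82035571-82037453, plus strand), Ccl7 (82045712-82047525, plus), Ccl12 (82101845-82103400, plus) and Ccl8 (82115185-82116799, plus). A stretch of 1456119 bases separates it from Ccl9 (83572919-83578636, minus), Ccl6 (83587882-83593087, minus), Ccl3 (83647844-83649355, minus) and Ccl4 (83662584-83664683, plus). Ccr2 lies at chr9:124101950-124113557 on the plus strand. Next-door genes stand 8258 bases apart for Ccl2 and Ccl7, 11784 for Ccl12 and Ccl8, 9245 for Ccl9 and Ccl6 and 13228 for Ccl3 and Ccl4.

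The 250 bases before the start site are shown for 2 neighbouring pairs, because the levels of 1 pair were arranged differently across cell types (Ccl12 and Ccl8) and those of the other went together (Ccl9 and Ccl6). The sequences are RefSeq promoters of GRCm38.p6, which held 6 of the 9 genes (Ccl3 and Ccr2 besides these, but not Ccl2, Ccl7 or Ccl4). They are written 5′ to 3′ along the gene, from chr11:82101595-82101844 for Ccl12 and chr11:82114935-82115184 for Ccl8 on the plus strand, and from chr11:83578637-83578886 for Ccl9 and chr11:83593088-83593337 for Ccl6 on the minus strand. Capitals mark letters that matched a searched motif on either strand.
Ccl12: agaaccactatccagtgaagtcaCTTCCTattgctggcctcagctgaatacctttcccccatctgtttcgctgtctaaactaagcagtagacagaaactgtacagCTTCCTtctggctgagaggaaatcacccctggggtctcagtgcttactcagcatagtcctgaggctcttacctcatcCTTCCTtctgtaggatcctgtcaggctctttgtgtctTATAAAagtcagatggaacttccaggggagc
Ccl8: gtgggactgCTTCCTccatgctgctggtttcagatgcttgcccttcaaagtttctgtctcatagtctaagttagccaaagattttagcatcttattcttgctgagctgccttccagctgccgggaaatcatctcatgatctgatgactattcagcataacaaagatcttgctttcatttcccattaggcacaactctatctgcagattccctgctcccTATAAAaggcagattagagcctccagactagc
Ccl9: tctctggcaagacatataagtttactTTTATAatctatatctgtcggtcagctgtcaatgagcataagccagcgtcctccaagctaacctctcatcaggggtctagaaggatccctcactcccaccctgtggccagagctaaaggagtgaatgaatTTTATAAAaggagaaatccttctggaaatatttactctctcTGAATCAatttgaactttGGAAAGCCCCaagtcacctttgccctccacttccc
Ccl6: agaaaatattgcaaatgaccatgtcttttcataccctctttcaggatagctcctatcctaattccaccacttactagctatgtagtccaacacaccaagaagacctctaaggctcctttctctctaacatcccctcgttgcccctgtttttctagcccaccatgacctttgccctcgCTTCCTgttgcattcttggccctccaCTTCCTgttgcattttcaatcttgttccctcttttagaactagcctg
The motifs searched on both strands were a TATA box (TATAAA, in 12.4% of all 32851 RefSeq promoter windows of this length), an AP-1 site (TGANTCA, 6.75%), an NF-kB site (by name only, 7.25%) and an ETS core (AGGAAG, 29.5%). Ccl12 and Ccl8 each had a TATA box just before the start site, at positions -31 and -32. Ccl12 held 3 ETS cores, Ccl8 held 1 and Ccl6 held 2, each on the minus strand. Ccl9 held 3 TATA matches (at -224, -94 and -92, the last 2 overlapping on opposite strands), an AP-1 match at -53 and an NF-kB match at -35. No searched motif was in the Ccl3 or Ccr2 window. These are matches of letters only, and no binding was measured.

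The filtered data held 4301 cells of the Tom positive library and 6579 of the Tom negative one, with 117253350 and 151001584 UMIs and a median of 24178 and 20611 UMIs per cell. Throughout, paired values give Tom positive before Tom negative. Levels are CPM, the count of a gene scaled by all UMIs of the population in that library, and since a 3′ library counts 1 end per molecule no length scaling was applied. There was 1 library per group, so no test was possible: bracketed ranges are exact 95% intervals that cover counting error only, and a difference is described as such only when a gene at 10 CPM or more in a library was at least 1.5-fold apart. The tdTomato transcript stood at 547 and 29.6 CPM over all cells. The libraries shared 3660 cell barcodes, and 233 Tom positive and 1234 Tom negative kept cells were doubted because their barcode was stronger in the other library or weak in both. Doubted cells made up most of the shallow mesothelial-like and plasma-like clusters but at most 3.04% of each fibroblast and myeloid cluster described below. The fibroblast-like class also holds a shallow cluster of 11 and 158 cells, 85.8% of them doubted, which is not described by itself. An unnamed shallow cluster (26 and 115 cells, 83.7% doubted) enters where unnamed clusters are added to fibroblasts.

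The fibroblast-like class (1498 and 2546 cells) had all 8 of its markers at 50 CPM or more in both libraries, the macrophage-like class (529 and 606) all 9, the neutrophil-like class (288 and 538) all 7 and the mast-like class (31 and 2) all 7. Fibroblasts fell into 5 main clusters, led by Fmod and Thbs4 (458 and 489 cells), Sfrp4 and C7 (237 and 179), Cemip (292 and 399), Pi16 and Cd55 (188 and 644) and Tnc and Stra6 (312 and 677). Macrophage-like cells comprised a Folr2 and Mrc1 cluster (388 and 350), a cycling cluster led by Top2a (57 and 118) and a Ccl24 cluster (84 and 138). A further Ccl17 dendritic cell-like cluster held 211 and 612 cells, with 4 and 5 of its 7 markers at 50 CPM or more. Its name was given on both libraries together, where 5 of the 7 reached that level. A Chil3 and F13a1 cluster (415 and 369), a Nos2 and Mmp12 cluster (224 and 265) and a Retnla and Ear2 cluster (33 and 98) carry the names of their leading genes only, because their leading genes did not settle a cell type.

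**Figure D1:**
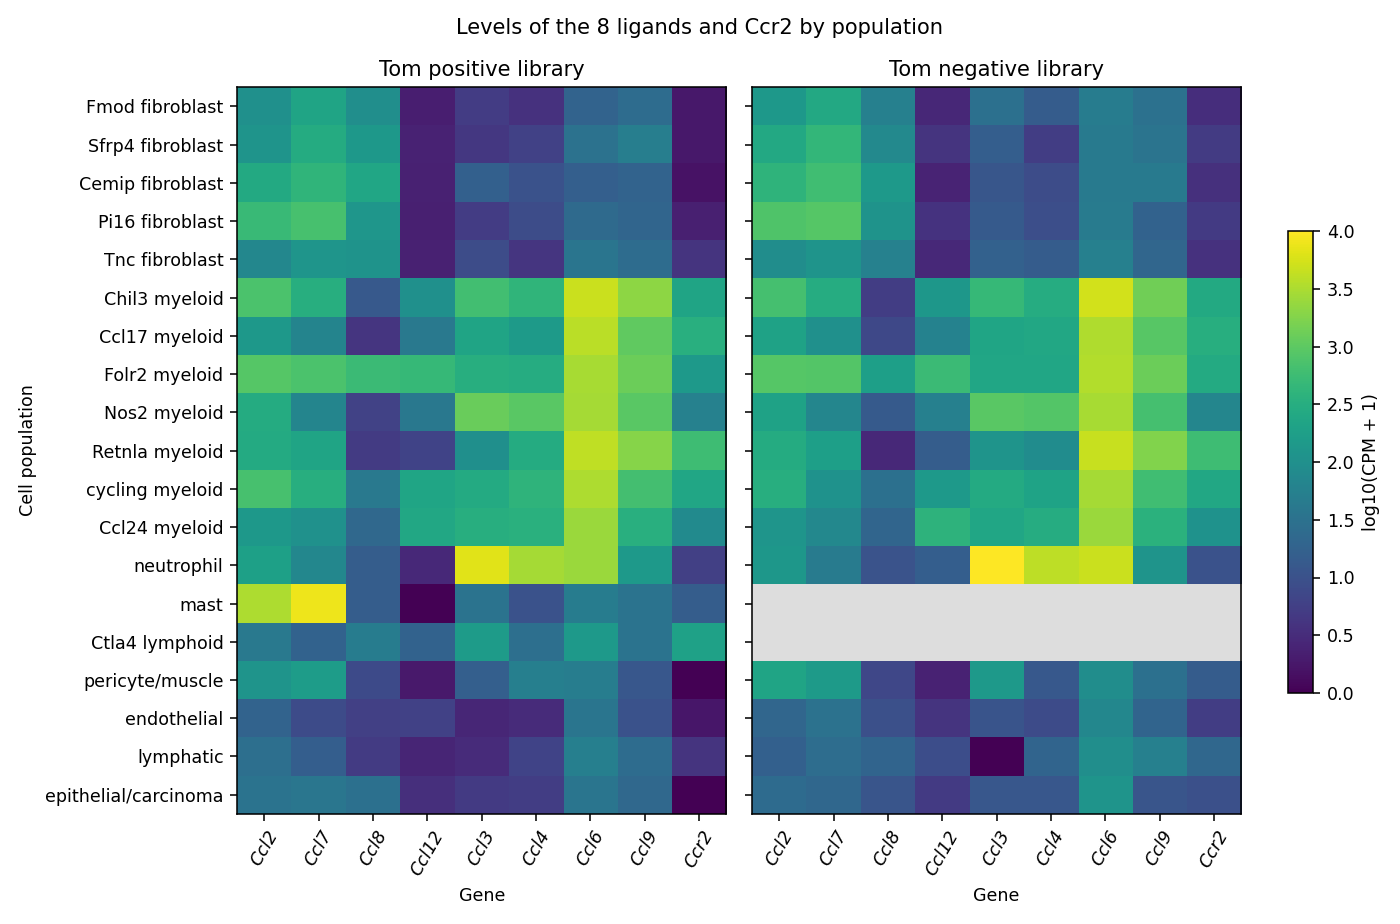
Level of each of the 9 genes in each population, as log10 of CPM plus 1, with Tom positive and Tom negative side by side and populations under 20 cells in grey. Ccl12, Ccl6, Ccl9 and Ccr2 are bright mainly in the myeloid rows (Ccr2 also in the Ctla4 lymphoid row), Ccl3 and Ccl4 peak in neutrophils, and Ccl2 and Ccl7 are bright in fibroblasts, myeloid cells and mast cells.

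Ccl2 and Ccl7 had several sources at once. Ccl2, the main CCR2 ligand for monocyte recruitment, stood at 177 and 333 CPM in the fibroblast-like class, 676 and 486 in the macrophage-like class, 733 and 664 in the Chil3 cluster, 291 and 203 in the Nos2 cluster and 135 and 202 in Ccl17 dendritic cell-like cells. Ccl7, which CCR2 also reads, stood at 296 and 432 CPM in fibroblast-like, 512 and 394 in macrophage-like, 325 and 293 in Chil3 cluster, and 65.6 and 67.4 in Nos2 cluster cells. Among the myeloid clusters the Folr2 macrophages had the most Ccl2 in both libraries, at 872 and 885 CPM. Endothelial-like cells were among the lowest, with Ccl2 at 17.7 and 19.9 CPM and Ccl7 at 7.10 and 30.6 CPM. Their median depth was 30822 and 2148 UMIs, and after thinning every cell to 2000 UMIs 2.08% and 1.65% of them held a Ccl2 UMI, against 19.2% and 26.5% of fibroblast-like and 50.1% and 40.8% of macrophage-like cells. Barcodes under 1000 UMIs, which can hold free RNA, had Ccl2 at 541 and 660 CPM and Ccl7 at 468 and 588 CPM, so the 534 and 698 CPM of Ccl2 in the shallow mesothelial-like cells cannot be told apart from free RNA. The same holds for neutrophil-like cells, with Ccl2 at 186 and 131 CPM and Ccl7 at 70.1 and 44.7 CPM, in which 40 of 288 and 62 of 538 cells had a Ccl2 UMI and 1 Tom positive cell held 38.1% of them.

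The highest levels of both genes were in mast-like cells. The 31 Tom positive mast-like cells held Ccl2 at 3194 CPM [2960 to 3442] and Ccl7 at 7805 CPM [7437 to 8187], and 30 of the 31 cells had a UMI of each. The median mast-like cell was at 3762 CPM for Ccl2 and 8483 CPM for Ccl7, so the level did not rest on a few cells. These cells were 0.721% of the Tom positive library and held 2.52% of its Ccl2 and 5.84% of its Ccl7 UMIs. The Tom negative library had 2 mast-like cells, both with Ccl2 and Ccl7, which is too few to compare. The other monocyte chemoattractants were low there: Ccl8 stood at 13.9 CPM and no Ccl12 UMI was seen, which allows up to 17.1 CPM.

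Counted as UMIs rather than levels, the source of Ccl2 differed between the libraries. Fibroblast-like cells held 37.3% of the Ccl2 UMIs in the Tom positive library and 59.6% in the Tom negative library. With the unnamed clusters added by their best-scoring marker list, fibroblasts held 40.7% and 64.4% and macrophage, monocyte and dendritic cell types together 53.1% and 31.6%. For Ccl7 the same fibroblast shares were 61.9% and 78.7%, and for Ccl8 67.1% and 84.2%. These shares carry the mix of sorted cells and their depth as well as the level per cell. Fibroblast-like cells were a smaller part of the Tom positive cells (34.8% and 38.7% of cells) and had lower Ccl2 there. They held 49.4% and 59.0% of all UMIs. Their part of the Ccl2 UMIs was thus below their part of all UMIs in the Tom positive library. In the Tom negative library it was close to it. With thinned cells their Ccl2 shares were lower in both libraries, as given below. The Pi16 cluster alone held 34.1% of the Tom negative Ccl2 UMIs (9.79% of cells) and 12.1% of the Tom positive ones (4.37% of cells). Depth enters here too: its median cell held 33791.5 UMIs over both libraries, against 24178 and 20611 for all kept cells.

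**Figure D2:**
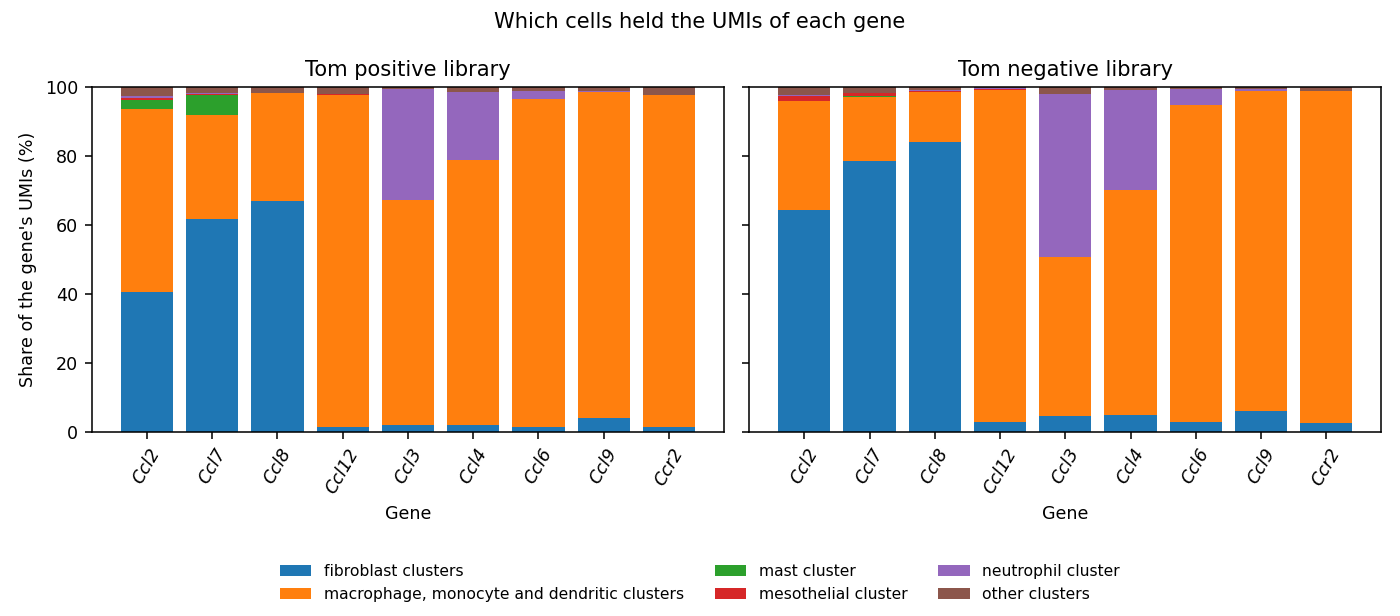
Share of each gene's UMIs held by each compartment in the Tom positive and Tom negative library, in percent of all UMIs of that gene over kept cells. Fibroblasts hold the larger part of Ccl7 and Ccl8 in both libraries, Ccl12, Ccl6, Ccl9 and Ccr2 come for 92.1% to 96.5% from macrophage, monocyte and dendritic cell types, and neutrophils add 31.9% and 47.1% of Ccl3.

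Within fibroblasts, Ccl2 and Ccl7 followed the subset. Ccl2 was highest in the Pi16 cluster (519 Tom positive and 798 Tom negative CPM), then in the Cemip cluster (265 and 405), the Sfrp4 cluster (118 and 260) and the Fmod cluster (100 and 135), and lowest in the Tnc cluster (69.8 and 90.6). The counting intervals of neighbours in this order did not touch in either library. Ccl7 had the same order, at 692 and 896, 415 and 583, 286 and 442, 217 and 263, and 120 and 119 CPM. The Pi16 cells, which lead with genes known from fascia and adventitia fibroblasts, also spread Ccl2 over more cells: the top 10% of cells held 47.3% and 43.9% of its UMIs, against 75.7% and 83.6% in the Tnc cluster. Ccl8, which binds CCR8 as well, was arranged otherwise, with the Cemip cluster on top (232 and 142 CPM) and the Pi16 cluster at 125 and 112 CPM.

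Between the libraries, Ccl2 was lower in Tom positive cells in 3 of the 5 fibroblast clusters and Ccl8 higher in 4 of them. The Ccl2 ratio of Tom positive to Tom negative was 0.453 [0.416 to 0.494] in the Sfrp4, 0.651 [0.627 to 0.676] in the Pi16, 0.654 [0.627 to 0.683] in the Cemip, 0.740 [0.695 to 0.789] in the Fmod and 0.770 [0.716 to 0.828] in the Tnc cluster. It was below 1 in all 5 and past 1.5-fold in the first 3, where 8.62% (Sfrp4), 2.11% (Pi16) and 2.91% (Cemip) of all genes were 1.5-fold apart, with 2.33% in the Fmod and 2.29% in the Tnc cluster. Across the whole class the ratio was 0.529 [0.518 to 0.541], a log2 difference of -0.91 that became -0.60 when both libraries were given the same mix of clusters and -0.31, within 1.5-fold, with reporter-high Tom positive cells. The Pi16 and Cemip differences were within 1.5-fold with thinned cells (log2 differences of -0.40 and -0.52) and with reporter-high cells (-0.45 and -0.16), and the Cemip difference also with TMM scaling (-0.58), as a mean over cells (-0.49) and in cells with 5% mitochondrial UMIs or less (-0.56). Ccl8 had a ratio of 2.02 [1.89 to 2.17] in the Tnc, 1.76 [1.57 to 1.98] in the Sfrp4, 1.69 [1.55 to 1.83] in the Fmod and 1.63 [1.54 to 1.73] in the Cemip cluster, and 1.11 [1.02 to 1.20] in the Pi16 cluster. Ccl7 passed 1.5-fold in the Sfrp4 cluster only (0.647 [0.610 to 0.687]) and stood at 1.02 [0.959 to 1.08] in the Tnc cluster. Whether the clusters differ from each other in these ratios was not tested.

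**Figure D3:**
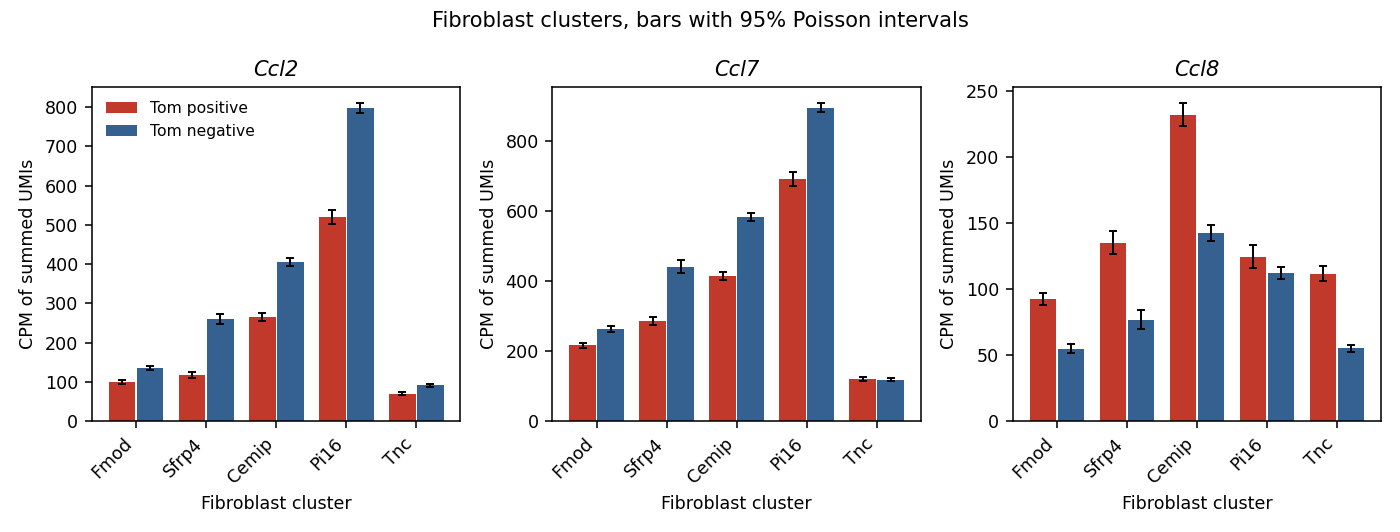
Ccl2, Ccl7 and Ccl8 in CPM in the 5 fibroblast clusters, Tom positive beside Tom negative, with exact 95% Poisson intervals as error bars (counting error only). The Tom positive bar lies below the Tom negative one for Ccl2 in every cluster and above it for Ccl8, least so in the Pi16 cluster (125 and 112 CPM).

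Among fibroblast-like cells, 5 of the 7 genes measured were at least 1.5-fold apart, 1 higher and 4 lower in the Tom positive library. Over all genes at that level 2.27% were so far apart, 0.834% higher and 1.44% lower. The gene that was higher, Ccl8, stood at 136 and 85.1 CPM, with log2 differences of 0.57 to 0.71 over the alternatives, of which thinned cells and kept doublets (0.57 each) were within 1.5-fold. The 4 lower genes were Ccl2 and 3 that fibroblasts hold only in traces: Ccl3 at 7.46 and 16.8 CPM, Ccl4 at 5.02 and 10.7 CPM and Ccl6 at 24.1 and 47.6 CPM. Fibroblast-like Ccl6 was below that of endothelial-like cells (34.9 and 70.4 CPM) in both libraries, and 34.3% of the Tom positive Ccl3 UMIs came from 1 cell. Transcripts of other cell types were also lower in the Tom positive fibroblasts, with the neutrophil gene S100a8 at 3.42 and 20.2 CPM, the macrophage gene C1qa at 7.49 and 15 CPM and the myeloid gene Lyz2 at 37.0 and 55.7 CPM. Their part in the low Ccl3, Ccl4 and Ccl6 values was not tested. Not every myeloid gene was lower: Ccl9 was close to level, at 24.8 and 25.7 CPM in fibroblasts with the unnamed clusters added. Ccl12 (1.28 and 2.13 CPM) and Ccr2 (1.36 and 2.98 CPM) were below the limit for measurement in fibroblasts.

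In macrophage-like cells Ccl2, Ccl7 and Ccl12 were less than 1.5-fold apart between the libraries and Ccl8 was higher in Tom positive cells. Ccl12, a mouse CCR2 ligand, was a macrophage gene: it stood at 475 and 531 CPM in the Folr2, 250 and 383 in the Ccl24, 220 and 137 in the cycling and 101 and 132 in the Chil3 cluster, and at no more than 58.8 CPM in Ccl17 dendritic cell-like and Nos2 cluster cells. The Folr2 cluster alone held 57.6% and 40.3% of all Ccl12 UMIs. Ccl8 stood at 534 and 180 CPM in the Folr2 cluster, a ratio of 2.97 [2.77 to 3.19], but at 12 and 4.34 CPM in the Chil3 and 5.15 and 12.6 CPM in the Nos2 cluster. The Folr2 macrophages thus held both neighbours, Ccl12 and Ccl8, whereas fibroblasts held Ccl8 with hardly any Ccl12.

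Macrophage Ccl8 was carried by few cells. In the Folr2 cluster 38.4% and 25.1% of cells had a Ccl8 UMI (19.1% and 11.2% after thinning), and the top 10% of cells held 90.3% and 92.6% of its UMIs. A single Tom positive cell with 1031 Ccl8 UMIs among 33842 held 28.9% of that cluster's Ccl8. Without the highest cell of each library the ratio was 2.54 in the Folr2 cluster and 3.20 in all macrophage-like cells, against 3.81 [3.57 to 4.07] with them. The difference lay in the cells with more mitochondrial UMIs: among Folr2 cluster cells with over 5% of them Ccl8 stood at 1011 and 172 CPM, and among those with 5% or less at 192 and 185 CPM. The cell with 1031 Ccl8 UMIs, at 5.88% mitochondrial UMIs, was among the former, and the split was not repeated without it. For all macrophage-like cells the values at 5% or less were 126 and 102 CPM, so the Ccl8 call ends there, while the fibroblast-like ones were 137 and 86.2 CPM. Mitochondrial share is a sign of RNA quality, and its part in the macrophage result was not tested. In the same macrophage-like cells 2 of 9 genes were at least 1.5-fold apart (Ccl8 higher, Ccr2 lower), against 3.59% of all genes measured there. The Ccr2 difference of the class lay close to the limit, with log2 values of -0.43 to -0.92 over the alternatives against -0.61.

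Further differences were seen in single myeloid clusters. The share of all genes at least 1.5-fold apart was 3.75% in the Folr2, 8.06% in the cycling, 8.08% in the Ccl24, 8.18% in the Chil3, 5.66% in the Nos2 and 19% in the Retnla cluster and 3.51% in Ccl17 dendritic cell-like cells. It was 12.6% in endothelial-like and 18.2% in pericyte or smooth muscle-like cells. The cycling macrophages had 4 of 9 genes higher in the Tom positive library, where 4.17% of all genes were: Ccl2 at 693 and 317 CPM (2.19 [2.04 to 2.35]), Ccl7 at 319 and 108 (2.95 [2.62 to 3.32]), Ccl12 at 220 and 137 (1.60 [1.42 to 1.81]) and Ccl4 at 393 and 210 (1.87 [1.71 to 2.06]). These rest on 57 Tom positive cells, of which 1 held 35.9% of the Ccl7 UMIs, and without the highest cell of each library the Ccl7 ratio was 2.11. With thinned cells the Ccl12 log2 difference was 0.26, within 1.5-fold. In Ccl17 dendritic cell-like cells 3 of the 8 genes measured were lower, where 2.1% of all genes were: Ccl2 at 135 and 202 CPM, Ccl7 at 62.1 and 102 CPM and Ccl4 at 148 and 252 CPM. The Ccl2 difference was within 1.5-fold with thinned cells and the Ccl7 difference in cells with 5% mitochondrial UMIs or less (log2 differences of -0.49 each). The Ccl4 value is not stable, since the mean over cells and thinned cells put it higher in the Tom positive library (log2 differences of 0.37 and 0.31). Ccl12 was lower in the Ccl24 macrophages, at a ratio of 0.655 [0.596 to 0.719], and within 1.5-fold with reporter-high cells (log2 difference -0.49). In the Chil3 cluster Ccl9 stood at 2071 and 1353 CPM, a ratio of 1.53 [1.49 to 1.57], where 3.33% of all genes were higher, at the limit in cells with 5% mitochondrial UMIs or less (log2 difference 0.58).

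**Figure D4:**
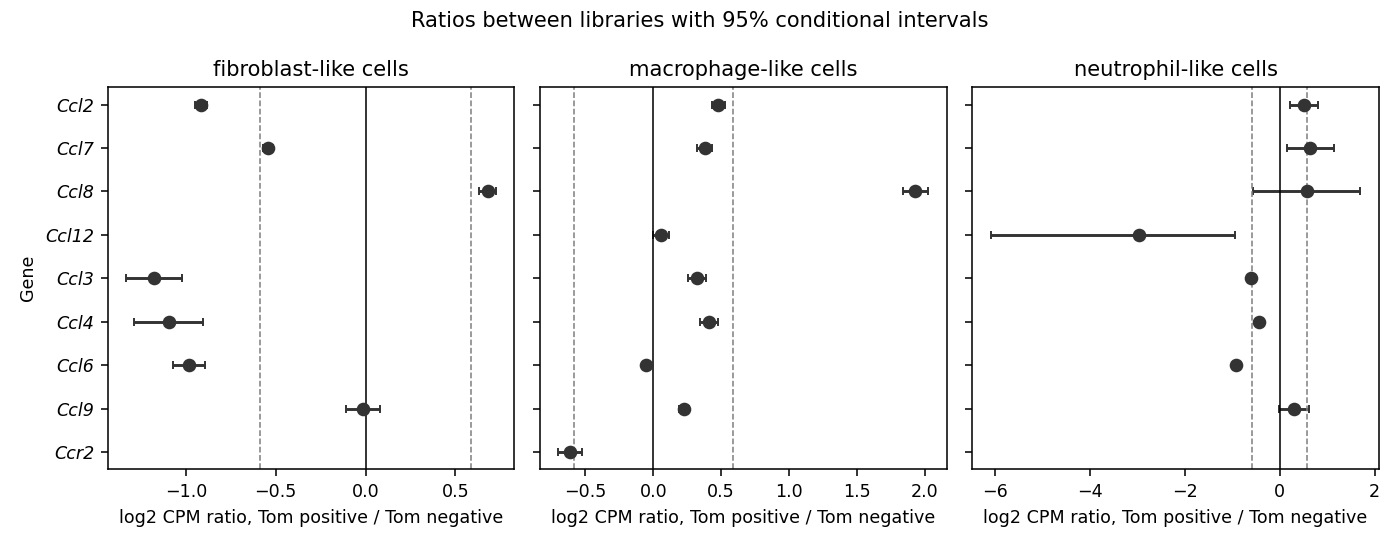
Log2 ratio of Tom positive to Tom negative CPM for each gene in fibroblast-like, macrophage-like and neutrophil-like cells, with exact 95% conditional intervals (counting error only) and dashed lines at 1.5-fold. Ccl2 lies below 0 in fibroblasts and above 0 in macrophages, and Ccl8 lies above the upper line in both.

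Ccl3 and Ccl4, the macrophage inflammatory proteins, were led by neutrophils. Neutrophil-like cells held Ccl3 at 6651 and 10099 CPM and Ccl4 at 2910 and 3948 CPM, and 81.9% and 89.0% of them had a Ccl3 UMI although their median depth was only 3566 and 2744 UMIs. The Nos2 cluster came next with Ccl3 at 1211 and 954 CPM and Ccl4 at 948 and 864 CPM, followed by the Chil3 cluster with Ccl3 at 613 and 478 CPM and Ccl4 at 419 and 298 CPM. The pair differed in its proportion: per Ccl3 UMI there were 0.44 and 0.39 Ccl4 UMIs in neutrophils, 0.78 and 0.91 in the Nos2 cluster and 1.09 and 1.25 in the Ccl24 macrophages. Neutrophils held 31.9% and 47.1% of all Ccl3 UMIs but 19.9% and 29.0% of all Ccl4 UMIs.

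In neutrophil-like cells Ccl3, Ccl6 and Ccl12 were lower in the Tom positive library and Ccl7 was higher. These are 4 of the 8 genes measured, a share near that of all genes there, of which 43.8% were at least 1.5-fold apart, and the median gene was 0.40 higher on the log2 scale. Ccl3 had a ratio of 0.659 [0.640 to 0.678], Ccl6 of 0.532 [0.508 to 0.556] and Ccl4, within 1.5-fold, of 0.737 [0.706 to 0.770]. With TMM scaling, which takes out the common shift, the Ccl3 log2 difference went from -0.60 to -0.99, and under 7 other alternatives it was -0.54 to -0.58, within 1.5-fold. Ccl12 stood at 1.92 and 14.9 CPM in neutrophils, and of the Tom positive Ccl7 UMIs (70.1 and 44.7 CPM) 1 cell held 43.8%.

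Ccl6 and Ccl9 were broad myeloid genes. Ccl6 stood at 4788 and 5340 CPM in the Chil3 cluster, 4118 and 4642 in the Retnla cluster, 3813 and 3302 in Ccl17 dendritic cell-like cells, 2972 and 3513 in the Folr2 and 2525 and 2496 in the Ccl24 macrophages, with 89.4% to 100% of the cells of each positive. Ccl9 ranged more widely, from 2071 and 1353 CPM in the Chil3 and 1900 and 1760 in the Retnla cluster down to 338 and 363 in the Ccl24 macrophages. Neutrophils separated the pair: they held Ccl6 at 2514 and 4728 CPM and Ccl9 at only 146 and 118 CPM, or 0.06 and 0.02 Ccl9 UMIs per Ccl6 UMI against 0.42 and 0.36 in the Folr2 macrophages. In the Ccl24 macrophages the proportion was 0.13 and 0.15, so these chromosomal neighbours did not keep 1 ratio across myeloid cells either.

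Ccr2, the receptor for CCL2, CCL7 and CCL12, had its transcripts in clusters that also made its ligands. It was highest in the Retnla cluster (580 and 576 CPM), then in Ccl17 dendritic cell-like cells (334 and 327), and below these in the cycling macrophages (232 and 253), the Chil3 cluster (215 and 266), the Folr2 macrophages (141 and 278), the Ccl24 macrophages (80.0 and 109) and the Nos2 cluster (56.2 and 67.2). This is the Tom positive order, in which the counting intervals of the cycling and Chil3 clusters overlapped. In the Tom negative library those 2 and the Folr2 macrophages could not be ordered beyond counting error. Neutrophils (4.80 and 9.07 CPM) and endothelial-like cells (0.721 and 4.38 CPM) had almost none. Outside the myeloid cells, a cluster of 39 Tom positive and 13 Tom negative cells led by Ctla4 and Gzmc had Ccr2 at 197 and 127 CPM. Myeloid cells other than neutrophils held 96.3% of all Ccr2 UMIs in both libraries.

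Ccr2 was lower over all Tom positive cells, and of the 7 myeloid clusters the Folr2 macrophages alone were past 1.5-fold. Over all kept cells 2 of 9 genes were at least 1.5-fold apart, against 7.76% of all genes: Ccr2 (47.6 and 73.5 CPM, 0.648 [0.627 to 0.669]) and Ccl8 (105 and 64.0 CPM, 1.64 [1.59 to 1.68]). In cells with 5% mitochondrial UMIs or less Ccl8 stood at 88.0 and 68.9 CPM, within 1.5-fold. The value over all cells also carries the smaller number of Ccr2-rich Ccl17 dendritic cell-like cells in the Tom positive library. In the Folr2 cluster Ccr2 had a ratio of 0.507 [0.467 to 0.550], with a Ccr2 UMI in 42.0% and 66.9% of its cells (19.9% and 37.1% after thinning), and it stood at 176 and 336 CPM in those of its cells with 5% mitochondrial UMIs or less. In the clusters with the most Ccr2 the libraries were level, at 1.01 [0.901 to 1.12] in the Retnla cluster and 1.02 [0.964 to 1.08] in Ccl17 dendritic cell-like cells. Of 7 classical monocyte genes measured in macrophage-like cells, 3 were lower in the Tom positive library (Plac8, Chil3 and Hp, at ratios of 0.53, 0.66 and 0.55) and F13a1 was higher (1039 and 639 CPM). In the Folr2 cluster alone 4 of 8 were lower and none higher, and in the Chil3 cluster 3 of 9 were higher and none lower. Over all genes, 3.59% were at least 1.5-fold apart in macrophage-like cells, 3.75% in the Folr2 and 8.18% in the Chil3 cluster. The link of these monocyte genes to the Ccr2 difference was not tested. Ly6c2, the defining surface marker, was at 3.26 and 4.87 CPM.

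**Figure D5:**
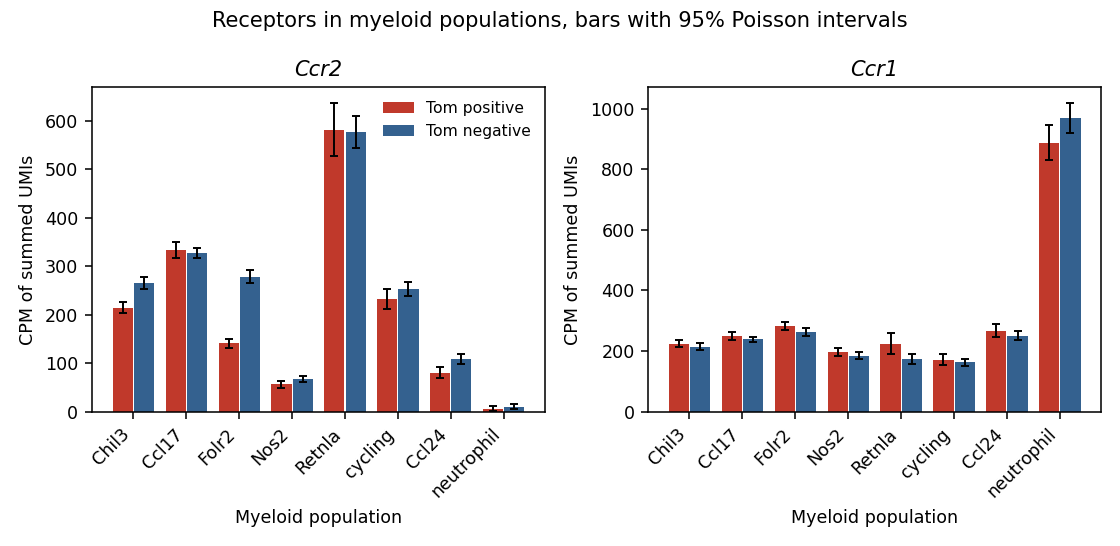
Ccr2 and Ccr1 in CPM in 7 myeloid clusters and in neutrophils, Tom positive beside Tom negative, with exact 95% Poisson intervals. Ccr2 is highest in the Retnla cluster (580 and 576 CPM) and near 0 in neutrophils, where Ccr1 is highest (887 and 969 CPM).

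Ccr1 divided the myeloid cells differently. This receptor, which reads CCL3, CCL6 and CCL9, was highest in neutrophils (887 and 969 CPM) and lay between 163 and 284 CPM in the myeloid clusters. The cells with the most Ccl3 thus also had the most transcripts of a receptor that reads it. The decoy receptor Ackr1, which venous endothelium uses to hold chemokines, stood at 94.7 and 59.9 CPM in endothelial-like cells and at 48.9 and 51.1 CPM in the Pi16 cluster, which had the most Ccl2 of the 5 fibroblast clusters. Ackr2, a scavenger of inflammatory CC chemokines, stood at 115 and 78.7 CPM in lymphatic endothelial-like cells and at 17 and 19.5 CPM in the Pi16 cluster. Of the 7 receptors and decoys counted, 2 were measured in fibroblast-like cells with 1 lower (Ackr1), where 2.27% of all genes were apart. No receptor or decoy measured in any of the 5 fibroblast clusters was past 1.5-fold. The fibroblast-like Ackr1 value also carries the smaller part of Pi16 cluster cells in the Tom positive library (188 of 1498 and 644 of 2546 cells). In macrophage-like cells 3 were measured with none past 1.5-fold.

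Ccl2 and Ccl7 were seen in the same cells. With every cell thinned to 2000 UMIs, Ccl7 was detected in 60.6% and 60.8% of fibroblast-like cells that had Ccl2 and in 22.1% and 27.1% of those that did not, with 57.4% and 59.3% against 18.3% and 18.1% for macrophage-like cells. In fibroblast-like cells Ccl8 followed Ccl2 far less, in 20.2% and 13.9% of Ccl2-positive against 17.8% and 12.2% of Ccl2-negative cells. In macrophage-like cells Ccl8 was in 21.7% and 10.8% of Ccl2-positive against 8.95% and 6.88% of Ccl2-negative cells. Ccl12 was in 46.1% and 45.2% of Ccl2-positive against 21.0% and 24.9% of Ccl2-negative macrophage-like cells. Ccl12 was also in 50.6% and 50% of Ccl8-positive against 30.5% and 31.7% of Ccl8-negative macrophage-like cells. Cells of a class share a library and a mix of subsets, so these are descriptions. The proportion of Ccl7 to Ccl2 differed between cell types: there were 2.44 Ccl7 UMIs per Ccl2 UMI in Tom positive mast-like cells, 1.68 and 1.29 in fibroblast-like cells, 0.83 and 0.97 in Folr2 macrophages, 0.44 and 0.44 in the Chil3 cluster and 0.23 and 0.33 in the Nos2 cluster.

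Across 38 points (clusters with at least 50 cells in a library, each library a point, of shared depth and normalization), Ccl3 and Ccl4 had a Pearson correlation of 0.92 on the log2 scale, Ccl6 and Ccl9 of 0.94, Ccl2 and Ccl7 of 0.83 and Ccl8 and Ccl12 of -0.10. The genes with the most similar pattern among 9798 were Metrnl, Sdc4 and Il18 for Ccl2 (0.78 to 0.81), Arhgef10l, Celf2 and Dse for Ccl7 (0.76 to 0.83) and Mcoln2, Ephb2 and Coq8b for Ccl8 (0.73 to 0.78). The myeloid members had closer partners: Msr1, C1qa and C1qc for Ccl12 (0.93 to 0.94), Plek, Slfn1 and Clec4e for Ccl3 (0.94), Mir142hg, Cd274 and Pik3ap1 for Ccl4 (0.95 to 0.96), Dmxl2, Fcgr3 and Fcer1g for Ccl6 (0.97 to 0.98), Fcgr2b, Dpep2 and Cd200r1 for Ccl9 (0.95 to 0.96) and Tbxas1, Lyz2 and Ctss for Ccr2 (0.94 to 0.97).

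Inducers of these ligands were compared in the same way. Of 20 listed cytokines, receptors and transcription regulators, 17 were measured in fibroblast-like cells, where 2 were lower and none higher (2.27% of all genes were apart): Nfkb1, an NF-kB subunit, at 485 and 770 CPM (ratio 0.63), and Il1b at 6.44 and 19.1 CPM. Il1b was a leading gene of the neutrophil-like and Ccl17 dendritic cell-like clusters. The part of transcripts from such cells in its fibroblast value was not tested. The median log2 difference of the 17 measured genes was -0.20, against -0.02 over all genes measured in these cells and -0.91 over the 7 chemokine genes. Whether these differences bear on Ccl2 was not tested. In the Sfrp4 cluster, with the lowest Ccl2 ratio of the 5 fibroblast clusters, 7 of 17 were lower, with a median log2 difference of -0.46, where 8.62% of all genes were apart. In the other 4 clusters 1 or 2 were lower and none higher. Over the whole class, the NF-kB inhibitor Nfkbia stood at 444 and 666 CPM and Il6 at 154 and 219 CPM, just within 1.5-fold, and the receptors Il1r1 (360 and 342 CPM) and Tnfrsf1a (155 and 169 CPM) were close to level. In macrophage-like cells 19 were measured and only Il6 passed, where 3.59% of all genes were apart (73.8 and 48.4 CPM, 1.52-fold). Of the other CC chemokines, 3 were measured in fibroblast-like cells with Ccl24 lower (ratio 0.50), while the eosinophil chemokine Ccl11 stood at 254 and 311 CPM, and in macrophage-like cells Ccl17 was lower (17.6 and 66.6 CPM). Ccl24 was a leading gene of the Chil3 and Nos2 clusters and the Ccl24 macrophages. The part of transcripts from such cells in its fibroblast value was not tested either.

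Within the Tom positive library, cells with at least 500 CPM of the reporter transcript were set beside those with less. Fibroblast-like Ccl2 was at 269 CPM in the 273 reporter-high cells, 156 CPM in the 1225 reporter-low cells and 333 CPM in the Tom negative library, so the reporter-low sorted cells were the farthest from Tom negative. Macrophage-like Ccl8 went the other way, at 396, 127 and 85.7 CPM. In the Folr2 cluster Ccl8 was at 661, 185 and 180 CPM, whereas Ccr2 was at 141, 140 and 278 CPM and did not follow the reporter. The single Tom positive cell with 1031 Ccl8 UMIs fell in the reporter-high part, and the split was not repeated without it. Neutrophil Ccl6 was at 1457, 4261 and 4728 CPM. Neutrophil-like cells were shallow, so very few reporter UMIs reach 500 CPM in them and the split depends on depth there. Over all kept cells Ccr2 was at 110, 21.2 and 73.5 CPM, an order that the mix of cell types in the reporter-high cells enters.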

How the data were processed

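The deposited matrices hold whole-number UMI counts per gene and cell barcode, made by the authors with Cell Ranger 7.0.1 per the file headers, with mm10 as genome build per the submitters' processing notes. The rule for calling cells is not given in the sources used here: barcodes went down to 500 UMIs, and 7568 (Tom positive) and 13604 (Tom negative) were listed. Barcodes below 500 genes or 1000 UMIs, or with over 10% of UMIs from mitochondrial genes, were dropped (leaving 4365 and 6677), and 64 and 98 were removed as doublets by Scrublet, run per library in scanpy 1.11.5. Kept cells held 91.4% and 91.7% of the UMIs. Both libraries were scaled to a common depth and clustered together on 2000 variable genes without the 9 described genes (30 principal components, 15 neighbours, Leiden resolution 1), which gave 26 clusters. A cluster was named for a type when at least 3 and at least 60% of the markers in that list reached 50 CPM, their mean stood at least 1 log2 unit over the median cluster and its 10 leading genes did not hold more markers of another type. These limits and the reporter limit were set after the data were seen.

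CPM was computed from the deposited counts summed per population and library, with exact Poisson intervals for levels, binomial ones for shares and conditional ones for ratios (SciPy 1.17.1, 95%, counting error only). Log2 differences are of CPM plus 1, which understates changes of low genes. Populations with fewer than 20 cells in a library were not compared. With 1 library per group no test across libraries was possible, and a fold of 1.5 stands in its place. A barcode found in both libraries was doubted when it held over 5 times as many UMIs in the other library or under 5000 in both. Cells were thinned to 2000 UMIs where detection was compared across depths. The ratios were tested on simulated data. TMM factors came from edgeR 4.0.16. All 9 genes are named, with the 3 genes most like each and the fixed lists by count, without a listed receptor that is not reported here. The genes, lists and alternatives were chosen with earlier results of these data known. Cell types were rebuilt here from markers, so cell numbers depend on these choices.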

Additional observations from a re-analysis of the deposited data

Results flagged for a closer look

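A few genes differed between the libraries in opposite directions in different cell types, past 1.5-fold each way and with counting intervals that excluded no difference. The gap between the cell types was not tested, since each library is a single sample. Ccl7 was higher in Tom positive neutrophil-like cells (log2 difference 0.64) and lower in Ccl17 dendritic cell-like cells (-0.71), a gap of 1.35, and lower in endothelial-like cells (-1.97), a gap of 2.60. A single Tom positive neutrophil-like cell held 43.8% of the Ccl7 UMIs of its class, and without the highest cells the neutrophil difference was 0.06. A single Tom negative endothelial-like cell held 52.7% of the Ccl7 UMIs of that class. Ccl4 was higher in Tom positive pericyte or smooth muscle-like cells (2.08, at 51.7 and 11.5 CPM over 46 and 160 cells) and lower in Ccl17 dendritic cell-like cells (-0.76), a gap of 2.84, and in fibroblast-like cells (-0.96), a gap of 3.04. The pericyte value rests on 1 cell as well, which held 83.6% of the Tom positive UMIs.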

How the results depend on the processing

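No paired analysis was possible because each group is 1 library, and leaving out a library leaves no comparison. The log2 difference of Ccl2 in fibroblast-like cells, -0.91, kept its direction in every alternative run: it was -0.86 with a mitochondrial limit of 20%, -0.83 with minimums of 1000 genes and 3000 UMIs, -0.86 with a minimum of 200 genes, -0.99 with doublets kept, -0.97 at Leiden resolution 2, -0.96 as a mean over cells, -0.76 with thinned cells and -0.60 with an equal cluster mix. With reporter-high Tom positive cells only it was -0.31, within 1.5-fold, and 3 genes instead of 5 were past 1.5-fold there. The Ccr2 difference over all kept cells, -0.62, was -0.49 with a mitochondrial limit of 5%, -0.48 at that limit with the clusters kept and -0.36 as a mean over cells, all within 1.5-fold, and reversed to 0.57 with reporter-high cells only. In macrophage-like cells 1 gene instead of 2 was past 1.5-fold with the 20% limit, the stricter minimums, doublets kept, resolution 2 and reporter-high cells, where Ccr2 was lost, and at 5% with the clusters kept, where Ccl8 was lost (0.30 against 1.92). The cause of these changes was not tested.

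The fibroblast-like share of Ccl2 UMIs stayed lower in the Tom positive library (37.3% and 59.6%) in each setting that gave both: it was 34.9% and 58.2% with the 5% limit, 40.8% and 64.4% with 20%, 39.7% and 64.6% with the stricter minimums, 39.7% and 62.0% with 200 genes, 38.6% and 62.4% with doublets kept, 36.4% and 59.1% at resolution 2, 21.8% and 43.5% with thinned cells and 43.0% and 65.5% at 5% with the clusters kept. Without doubted barcodes the Tom negative share was 60.3%, and reporter-high Tom positive cells gave 19.2%. Of single values, Ccl8 in the Chil3 cluster reversed to -0.24 and Ccl4 in Ccl17 dendritic cell-like cells to 0.37 as a mean over cells, the latter also to 0.31 with thinned cells, and Ccl3 in the Sfrp4 fibroblasts to 0.57 with reporter-high cells. Of 47 differences past 1.5-fold, 47 stayed so without doubted barcodes, 44 with TMM scaling, 42 as a mean over cells, 38 with thinned cells, 38 without the highest cell of each library, 38 at 5% with the clusters kept and 35 with reporter-high cells. Only 13 of them could be followed in the runs that were filtered or clustered anew. Of these 13, 8 stayed so with the 5% limit and 11 with 200 genes. It was 10 with the 20% limit, the stricter minimums, doublets kept and resolution 2. The settings that leave out the highest cells or keep the clusters at 5% were chosen after seeing the data. With 200 genes and no UMI minimum Scrublet called 0 doublets in the Tom negative library, so doublets were not removed there. Ccl12 and Ccr2 in fibroblasts lay under the minimum of 10 CPM. Cell number limits every value of mast-like cells in the Tom negative library, which held 2 of them.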
